A study of Homo sapiens with 4 samples.

Results

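Collagens are proteins of the extracellular matrix in which 3 chains wind into a triple helix built from repeats that begin with glycine. Some, such as collagens I and III, pack into fibrils, others form the sheets of basement membranes or sit on the surface of fibrils, and a few span the cell membrane. Intestinal epithelial cells rest on a basement membrane, while most fibrillar collagen of the gut wall is made by fibroblasts. The genes described here are those whose symbol has the form of a collagen chain (COL, a number, A, a number) in the names of the deposited targets, without the 3 chains of collagen IX. This gave 41 genes of the 20322 measured. The choice used symbols and not measured values.

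The RNA of 4 libraries came from HT-29 cells, a line derived from a human adenocarcinoma of the colon. In all 4 IGF2BP1, which encodes the mRNA-binding protein IMP1 of fetal tissues and tumours, had been targeted by CRISPR/Cas9, a mouse liver metastasis is given as the origin of the cells, and puromycin was kept in the medium. The IMP1-OE libraries (2) carried the PiggyBac vector PB*-FLAG-IMP1-short UTR, so that IMP1 was put back. The null libraries (2) carried PB*-empty. The design text speaks of 2 lines per genotype, but the labels say neither whether these are separate clones nor which promoter drives the vector. The p-values thus reflect only how the libraries at hand vary, and this variation may be technical. The comparison asks how mRNA levels differ once IMP1 has been put back.

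Totals were 10015212 and 10472121 counts in IMP1-OE and 10594813 and 9343429 in null. IGF2BP1 itself had 71 and 112 counts in IMP1-OE against 37 and 16 in null, in the order of the labels. Its log2 fold change was 1.69 (SE 0.56), with an edgeR adjusted p of 0.453, so this difference did not pass. DESeq2 gave IGF2BP1 1.69 with an adjusted p of 0.292, and the authors' deposited table has 0.10 with the same adjusted p. These are RNA counts, which do not give the level of IMP1 protein. The epithelial markers KRT8, KRT18, EPCAM and CDH1 had 4921 counts or more in every library, while CDX2, a transcription factor of the intestine, had 0 and 3 counts in IMP1-OE and 47 and 2 in null. The null libraries differed more from each other than the IMP1-OE libraries did for several genes below, so the value of each library is given.

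Most collagen chain genes were hardly detected. Of the 41 genes, 6 were above 20 counts in 2 or more libraries: COL17A1, COL18A1, COL16A1, COL27A1, COL4A2 and COL1A1. The first 5 were above 20 counts in all 4 libraries. COL1A1 was the gene just inside, with 22 and 7 counts in IMP1-OE and 35 and 12 in null. The genes just outside, above 20 in 1 library, were COL6A1 (8 and 18 counts in IMP1-OE, 53 and 9 in null) and COL3A1 (9 and 6 in IMP1-OE, 24 and 3 in null). The remaining 33 never exceeded 15 counts, 15 of the 41 genes stayed at 3 counts or fewer in every library, and COL12A1 was at 0 in all 4. Where no fragment was counted, as many as 3 remain possible, which is 0.285 to 0.328 on the CPM scale (counts scaled to a library of 1e+06), and these floors and the intervals below cover counting error only. Levels of these genes near the floor were not measurable at this depth, which does not show that they are absent.

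**Figure D1:**
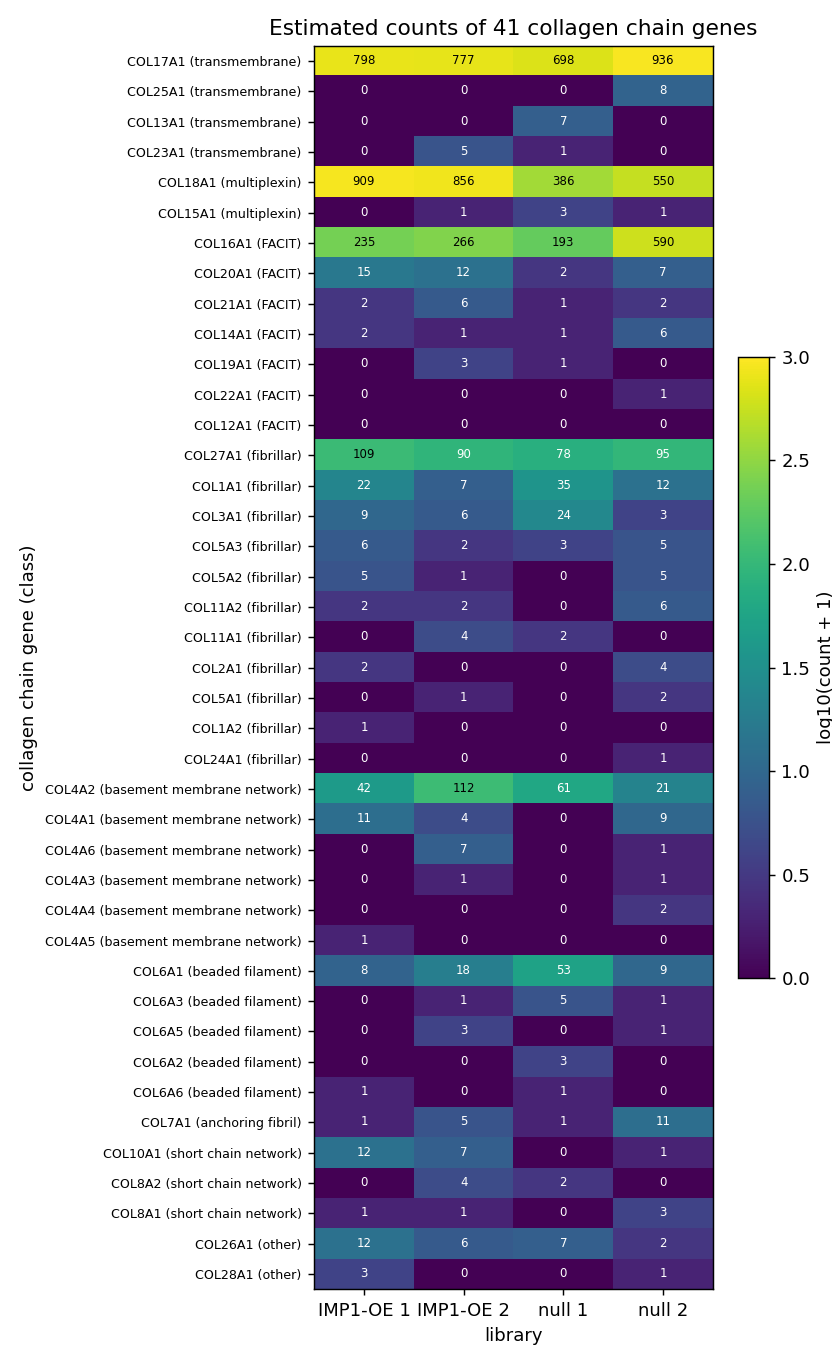
Estimated counts of the 41 collagen chain genes (rows, by structural class) in the 2 IMP1-OE and the 2 null libraries (columns). Each cell gives the count, and its colour is log10(count + 1). COL17A1, COL18A1 and COL16A1 stand above the rest in all 4 columns, and 33 genes never exceed 15 counts.

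The detected genes were spread over the structural classes. Of 11 fibrillar genes 2 were above 20 counts in 2 or more libraries, of 6 genes of the basement membrane collagen IV 1 was, of 7 FACIT genes (collagens that sit on fibril surfaces) 1, of 4 transmembrane genes 1 and of 2 multiplexin genes 1. None of the 5 collagen VI genes, the 3 short chain network genes, the anchoring fibril gene COL7A1 and the genes COL26A1 and COL28A1 was. COL17A1, COL18A1 and COL16A1, which encode collagens that assemble from 3 copies of 1 chain, together made up 87.9% and 86.0% of the counts of all 41 genes in IMP1-OE and 81.4% and 90.4% in null (exact 95% intervals 84.4% to 89.2% in IMP1-OE and 79.4% to 91.6% in null over both libraries).

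COL18A1 encodes the chain of collagen XVIII, a heparan sulfate proteoglycan of basement membranes whose end fragment is endostatin. RefSeq places its starts on chromosome 21 at 2 sites that are 50357 bases apart, and the deposited data hold 1 target for the gene, so RNA from the 2 starts cannot be told apart. The letters GGGCGG, the core of a GC box, were searched on both strands in windows of 250 bases before to 50 after each start (RefSeq, GRCh38.p14). They occur at 9 positions, some overlapping, in the window of the first start and at 1 in that of the second, while 45.0% of all 35116 windows hold at least 1. The stretches below show both kinds of start region, on the + strand of chr21:45405055-45405084 and of chr21:45455492-45455521, 5′ to 3′, with the motif, here read on the other strand as CCGCCC, in capitals. A match describes letters only.
COL18A1 first start: CCGCCCcgcgcCCGCCCcctgcccgcgccc
COL18A1 second start: ggccctcccgCCGCCCgcagctccagccgc

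COL18A1 was higher in IMP1-OE and had the smallest p of the collagen genes outside collagen IX, although it did not pass over all genes. It had 909 and 856 counts in IMP1-OE against 386 and 550 in null, or 86.5 and 81.4 CPM against 37.8 and 60.2 CPM. Both IMP1-OE libraries were above both null libraries, as was the case, on either side, for 43.2% of all tested genes. The mean was 83.9 ± 3.63 CPM for IMP1-OE and 49.0 ± 15.9 CPM for null (SD, n = 2 each). EdgeR's log2 fold change was 0.78 (SE 0.26), with an adjusted p of 0.453 and an unadjusted one of 0.0248. The threshold was 0.05. For COL18A1, the authors' deposited table has a log2 fold change of 0.44, a p of 0.0113 and an adjusted p of 0.257. DESeq2 on the same counts gave COL18A1 the same p and adjusted p with a log2 fold change of 0.78. In size, the deposited fold change of COL18A1 is thus smaller. So are those of COL16A1 (-0.07 against -0.80 in DESeq2), COL17A1 (-0.04 against -0.18) and COL4A2 (0.03 against 0.82). COL6A1 (-0.02 against -1.32) and COL20A1 (0.02 against 1.43) show the same. For each of these genes p and adjusted p are the same in both. The deposited table does not state why, and for COL18A1, as for the others, the cause was not tested. In fits that leave 1 null library, it is assumed to vary like the IMP1-OE libraries. Without null replicate 2 the log2 fold change was 1.15, with an adjusted p of 0.0932 in edgeR and 0.00253 in DESeq2, fits in which 0.396% and 2.11% of all genes pass. Without null replicate 1 it was 0.48, with an adjusted p of 0.154 in edgeR and 0.327 in DESeq2, where 6.46% and 8.4% of all genes pass.

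COL17A1 encodes the chain of collagen XVII, a transmembrane collagen of hemidesmosomes, which fasten epithelial cells to the basement membrane. It had 798 and 777 counts in IMP1-OE against 698 and 936 in null. The levels were 75.9 and 73.9 CPM in IMP1-OE against 68.3 and 102 CPM in null, so both IMP1-OE libraries lay between the null libraries. The log2 fold change was -0.19 (SE 0.24, edgeR adjusted p = 0.827), and it was 0.13 without null replicate 2. RefSeq's window for COL17A1 holds no GGGCGG, while those for COL16A1 and COL27A1 hold it at 2 and 3 positions.

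COL17A1 and COL18A1 differed by a like factor between the null libraries, while their ratio differed between the groups. In null replicate 2 the CPM of COL17A1 was 1.50 times and that of COL18A1 1.59 times that of null replicate 1. The ratio of COL18A1 to COL17A1 counts, which needs no scaling between libraries, was 1.14 and 1.10 in IMP1-OE and 0.553 and 0.588 in null. The counting intervals of the ratio were 1.03 to 1.25 and 0.999 to 1.22 in IMP1-OE and 0.487 to 0.627 and 0.528 to 0.654 in null, and the mean ratio in IMP1-OE was 1.96 times that in null. This pair was chosen after its values were seen, and the smallest p that an exact permutation test (two-sided) can reach with 2 libraries in each group is 0.333. The share of COL18A1 in the counts of all 41 genes was 41.1% and 38.8% in IMP1-OE and 24.6% and 23.9% in null. Summed over the 41 genes the level was 210.1 ± 0.212 CPM for IMP1-OE against 202 ± 69.3 CPM for null (SD, n = 2 each), where replicate 1 had 153 and replicate 2 had 251 CPM, so the groups overlapped in the sum.

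**Figure D2:**
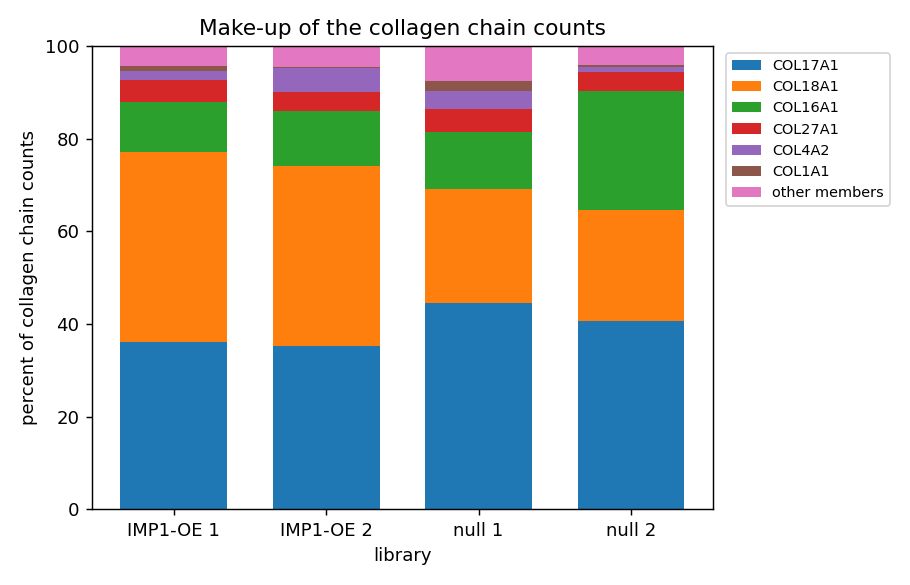
Stacked bars of the percent of all collagen chain counts that each of 6 genes, and the other 35 together, take up in each library. COL18A1 takes 41.1% and 38.8% in the IMP1-OE libraries and 24.6% and 23.9% in the null libraries, and COL16A1 takes 25.7% in null replicate 2 against 10.6% to 12.3% in the other libraries.

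COL16A1 encodes the chain of collagen XVI, a FACIT that stabilises contacts between cells and matrix. It had 235 and 266 counts in IMP1-OE and 193 and 590 in null, or 22.4 and 25.3 CPM against 18.9 and 64.6 CPM. Only null replicate 2 stood apart among the 4 libraries, with 3.42 times the CPM of null replicate 1. The log2 fold change over all libraries was -0.81 (SE 0.54, edgeR adjusted p = 0.650). Without null replicate 1 it was -1.44, with an edgeR adjusted p of 0.0173 (6.46% of all genes pass in that fit), and without null replicate 2 it was 0.34, with an adjusted p of 0.616, so the direction turned with the null library that was kept. In the authors' deposited table COL16A1 has a log2 fold change of -0.07 and an adjusted p of 0.726, while DESeq2 on the same counts gave -0.80 with an adjusted p of 0.726.

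COL27A1, a fibrillar collagen gene of cartilage that forms thin fibrils, was the most even. It had 109 and 90 counts in IMP1-OE and 78 and 95 in null, at 9.46 ± 1.29 CPM against 9.01 ± 1.96 CPM (SD, n = 2 each). The log2 fold change was 0.07 (SE 0.36, edgeR adjusted p = 0.963). Its libraries overlapped between the groups, and its log2 fold change lay between -0.14 and 0.31 with any library left out.

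COL1A1 encodes the main chain of collagen I, the collagen of tendon, bone and scar, which is normally built from COL1A1 chains and a COL1A2 chain. Its counts of 22 and 7 in IMP1-OE and 35 and 12 in null gave 2.09 and 0.665 CPM against 3.42 and 1.31 CPM. The log2 fold change was -0.78 (SE 0.92, edgeR adjusted p = 0.816), with 0.07 when null replicate 1 was left out and -1.81 when IMP1-OE replicate 1 was. COL1A2 had 1 and 0 counts in IMP1-OE and 0 and 0 in null. COL1A1 therefore gave at least 95.7% of the collagen I counts in every library, with a lower exact 95% bound of 78.1% and 59.0% in IMP1-OE and 90.0% and 73.5% in null.

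Null replicate 1 had the highest count of COL1A1 (35), COL3A1 (24) and COL6A1 (53) among the 4 libraries. These 3 were singled out after their values were seen, and other fibrillar genes such as COL27A1, COL5A3 and COL11A2 peaked in other libraries. Fibroblast markers did not share 1 pattern. LUM, the gene of the proteoglycan lumican, had 9 and 6 counts in IMP1-OE and 74 and 5 in null, while DCN, the gene of decorin, had 24 and 0 in IMP1-OE and 0 and 3 in null, and ACTA2, the gene of smooth muscle actin, 17 and 22 in IMP1-OE and 25 and 121 in null. COL6A1 encodes a chain of collagen VI, which forms beaded filaments with COL6A2 and COL6A3 chains, and these partners had at most 3 and 5 counts in any library. The log2 fold change of COL6A1 was -1.32 (SE 1.00, edgeR adjusted p = 0.690) and 0.32 without null replicate 1. Of 8 fibroblast and stroma markers 3 stayed at 3 counts or fewer in all libraries, PDGFRA was at 0 in all 4, and the summed level of the 8 was 4.85 and 3.52 CPM in IMP1-OE against 10.4 and 14.2 CPM in null, of which ACTA2 made up 13.2 CPM in null replicate 2. The part of these markers in the collagen counts was not tested. In bulk samples fewer cells of a type and less RNA per cell cannot be told apart.

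COL4A1 and COL4A2 encode the chains of the collagen IV of nearly all basement membranes, which joins both kinds of chain. Their RefSeq starts lie 127 bases apart on opposite strands of chromosome 13, so both genes share the region between. The motif CCAAT, which is present in 34.6% of all windows on either strand, and GGGCGG each occur there at a site that falls in the windows of both genes. The stretches below show these sites, with the motif in capitals, on the - strand of chr13:110307158-110307187, which ends at the base before the COL4A1 start and has CCAAT read on the other strand as ATTGG, and on the + strand of chr13:110307204-110307233 (RefSeq, GRCh38.p14, 5′ to 3′).
COL4A1 side: acaaATTGGggagctcggcccgccgcgctc
COL4A2 side: cccccggcggtgcgcGGGCGGcgcctcaaa

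The counts of this pair were unequal in every library. COL4A2 had 42 and 112 counts in IMP1-OE and 61 and 21 in null, while COL4A1 had 11 and 4 in IMP1-OE and 0 and 9 in null, on targets of similar length (6446 and 6540 nt). COL4A2 took 79.2% and 96.6% of their joint counts in IMP1-OE and 100% and 70.0% in null. The exact 95% intervals of this share were 65.9% to 89.2% and 91.4% to 99.1% in IMP1-OE and 94.1% to 100% and 50.6% to 85.3% in null. The lowest COL4A2 counts, in IMP1-OE replicate 1 and null replicate 2, stood in the libraries with the highest COL4A1 counts. The log2 fold change of COL4A2 was 0.82 (SE 0.70, edgeR adjusted p = 0.729), and it was -0.04 without IMP1-OE replicate 2 and 1.67 when null replicate 1 was left out. The other collagen IV genes, COL4A3 to COL4A6, had at most 7 counts in any library.

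**Figure D3:**
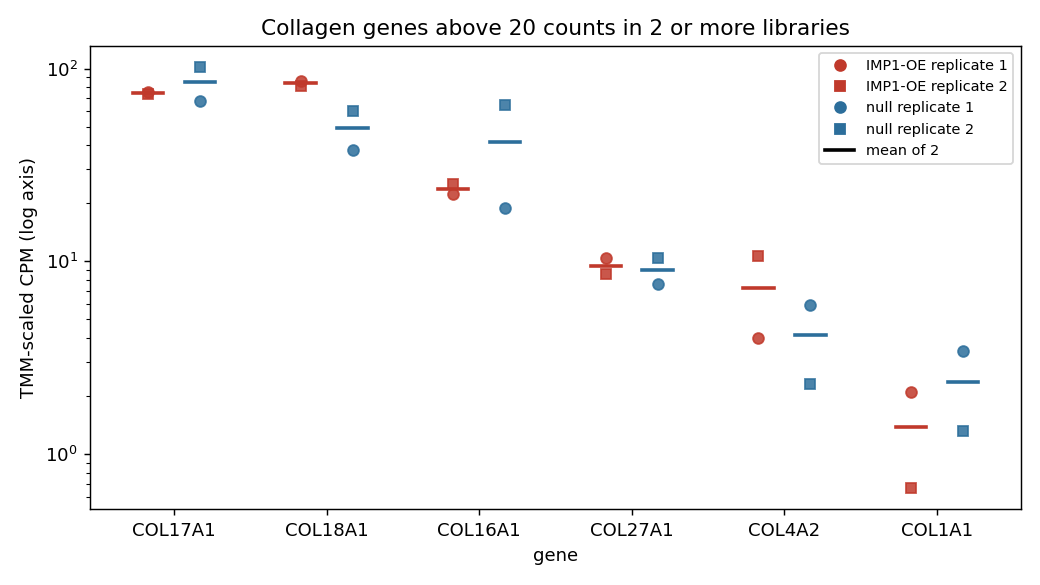
TMM-scaled CPM (log axis) of the 6 collagen genes above 20 counts in 2 or more libraries. Each point is a library (circles replicate 1, squares replicate 2) and each bar the mean of 2. COL18A1 is the only one of the 6 whose IMP1-OE points, 86.5 and 81.4 CPM, both lie above its null points, 37.8 and 60.2 CPM.

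Per length of target, which allows levels of different genes to be compared, the order of the 6 means differed between the groups in the places of COL18A1 and COL16A1. In IMP1-OE the levels were 13.3 ± 0.262 CPM per kb for COL17A1, 12.7 ± 0.551 for COL18A1, 4.40 ± 0.381 for COL16A1, 1.21 ± 0.165 for COL27A1, 1.14 ± 0.729 for COL4A2 and 0.233 ± 0.171 for COL1A1 (SD, n = 2). Of the neighbours in this order, COL27A1 and COL4A2 overlapped between libraries. In null the levels were 15.2 ± 4.30 CPM per kb for COL17A1, 7.70 ± 5.96 for COL16A1, 7.44 ± 2.41 for COL18A1, 1.15 ± 0.250 for COL27A1, 0.641 ± 0.402 for COL4A2 and 0.400 ± 0.252 for COL1A1 (SD, n = 2). There COL16A1 and COL18A1 overlapped, as did COL4A2 and COL1A1. In null replicate 1 COL18A1 had 5.73 and COL16A1 3.48 CPM per kb, the order seen in IMP1-OE. Only in null replicate 2 was COL16A1 the higher, at 11.9 against 9.14.

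Of the 41 genes, 8 passed the filter on low counts and were tested, namely the 6 above, COL6A1 and COL20A1. None of the 8 passed an edgeR adjusted p of 0.05, as no gene of the 12113 tested did (0%), with adjusted p from 0.453 to 0.963. At an unadjusted p under 0.05 edgeR gave 1 of the 8 (COL18A1) and 10.2% of all tested genes, so the share among the collagen genes was near that of all genes. IMP1-OE was higher for 4 of the 8 and lower for 4, and their median log2 fold change was -0.06 beside -0.02 for all tested genes. Of the 41 genes, 11 have an adjusted p in the authors' deposited table, and DESeq2 gave an adjusted p to as many. COL18A1 has the smallest, at 0.257, those of the other 10 lie between 0.726 and 0.994, and 1.28% of all genes with an adjusted p pass there.

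**Figure D4:**
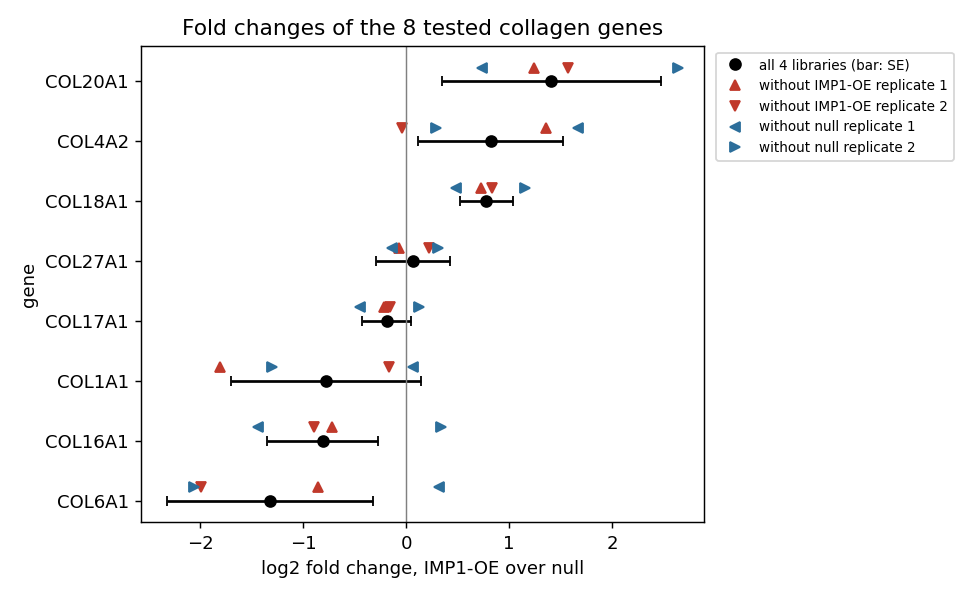
Log2 fold changes, IMP1-OE over null, of the 8 tested collagen genes. Black points are fits on all 4 libraries with SE bars, and triangles are fits without 1 library. COL18A1 (0.48 to 1.15) and COL20A1 (0.74 to 2.64) keep their side with any library left out. Both IMP1-OE libraries lay above both null libraries for them, so leaving out 1 could hardly turn their side. The other 6 have at least 1 fit on the other side of 0.

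COL20A1 and COL10A1 were the other genes higher in both IMP1-OE libraries, and they were singled out after their values were seen. COL6A3 and COL15A1 were lower in both by CPM, with at most 5 and 3 counts in any library. The groups did not overlap, on either side, for 43.2% of all tested genes. COL20A1, a FACIT gene, had 15 and 12 counts in IMP1-OE against 2 and 7 in null, a log2 fold change of 1.41 (SE 1.06, edgeR adjusted p = 0.685). The value was 2.64 when null replicate 2 was left out and 0.74 when null replicate 1 was. COL10A1, which encodes the network collagen of growth plate cartilage, had 12 and 7 counts in IMP1-OE against 0 and 1 in null, and was too low for the edgeR test. The DESeq2 unadjusted p of COL10A1 was 0.0879. COL2A1 and COL11A1, which encode chains of cartilage fibrils, had at most 4 counts in any library, and of the 4 cartilage markers ACAN and HAPLN1 had at most 1. The other 2 were detected: SOX9, a transcription factor of cartilage and of intestinal epithelium, had 2277 and 2066 counts in IMP1-OE against 1833 and 2315 in null, and MATN3, a matrilin gene, had 14 and 13 in IMP1-OE against 20 and 68 in null.

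The collagen IX genes give the contrast. COL9A3, a FACIT chain gene of cartilage, had 2986 and 2834 counts in IMP1-OE against 310 and 194 in null, and its partners COL9A1 and COL9A2 had at most 7. Collagen IX thus held 57.5% and 56.2% of all collagen counts in IMP1-OE against 16.6% and 8.05% in null. The log2 fold change of COL9A3 was 3.42 (SE 0.24), with an edgeR adjusted p of 0.0978, so COL9A3 did not pass in edgeR. It did pass in DESeq2, with a log2 fold change of 3.43 and an adjusted p of 9.18e-35. The authors' deposited table has 3.39 with the same adjusted p as DESeq2.

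Genes that make, process and bind collagens were read from lists, as counts that passed the same test. Of 20 biosynthesis genes 18 were tested, and IMP1-OE was higher for 10 and lower for 8. The median log2 fold change was 0.04, and 0 passed adjusted or at an unadjusted p under 0.05. P4HA1, a prolyl 4-hydroxylase subunit, had 64.3 and 45.8 CPM in IMP1-OE against 47.2 and 26.6 CPM in null. PLOD2, a lysyl hydroxylase, had 57.2 and 38.2 CPM in IMP1-OE against 46.8 and 27.6 CPM in null. SERPINH1, the collagen chaperone HSP47, had 158 and 139 CPM in IMP1-OE against 144 and 189.6 CPM in null. The groups overlapped for all 3, but not for every gene of the list. P4HB had 1082 and 1019 CPM in IMP1-OE against 1016 and 867 CPM in null, with an edgeR adjusted p of 0.789. Groups without overlap, on either side, were found for 43.2% of all tested genes.

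Of 15 genes that process and cross-link collagen, 7 were tested, and IMP1-OE was higher for 2 and lower for 5. The median log2 fold change was -0.83, and 1 (LOXL1) had an unadjusted p under 0.05, beside 10.2% of all tested genes. LOXL4, a lysyl oxidase gene, had 199 and 147 counts in IMP1-OE against 65 and 1839 in null, and its log2 fold change was -2.65 (edgeR adjusted p = 0.538) with all libraries and 1.37 without null replicate 2. LOXL1, a relative of LOXL4, had 16 and 23 counts in IMP1-OE against 23 and 324 in null, with a log2 fold change of -3.33 (edgeR adjusted p = 0.462) and of -0.28 without null replicate 2. BMP1, which cuts the end of procollagens, had 9.80 and 10.9 CPM in IMP1-OE against 12.3 and 24.6 CPM in null. The library in which COL16A1 was highest was thus also highest for these 3, a likeness picked out after the values were seen. Genes of other lists, such as SERPINH1, DDR1 and LAMB2, were highest there too. PCOLCE2, which helps BMP1, was not, with 42 and 14 counts in IMP1-OE against 66 and 8 in null. Without null replicate 1, LOXL1 and LOXL4 passed (adjusted p 0.00497 and 0.00219), where 6.46% of all genes did, and the median of the list without null replicate 2 was -0.28.

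Collagen receptors and partners in the basement membrane did not pass either. Of 11 receptor genes 6 were tested, and IMP1-OE was higher for 1 and lower for 5, at a median of -0.43 and with 0 at an unadjusted p under 0.05. DDR1, a receptor tyrosine kinase for collagen, had 117 and 109.9 CPM in IMP1-OE against 127 and 196 CPM in null, and ITGA1, a collagen-binding integrin chain, 53.5 and 60.4 CPM in IMP1-OE against 64.2 and 81.1 CPM in null. Both lay below null in both IMP1-OE libraries, with adjusted p of 0.536 and 0.600 in edgeR. On either side, the groups lay apart in this way for 43.2% of all tested genes. Of 18 basement membrane partners 13 were tested, 5 higher and 8 lower, with a median of -0.19. LAMB2, a laminin chain gene, had 32.8 and 36.7 CPM in IMP1-OE against 52.7 and 80.1 CPM in null, a log2 fold change of -0.93 (unadjusted p 0.0109, edgeR adjusted p = 0.435), and was the 1 gene of this list under 0.05 unadjusted, beside 10.2% of all tested genes. ITGB4, the integrin chain that joins collagen XVII in hemidesmosomes, had 869.8 and 888 CPM in IMP1-OE against 911 and 1142 CPM in null. NID1 and NID2, which link collagen IV to laminin, were at 0 counts in all 4 libraries. Without null replicate 1 the medians of the receptor and partner lists were -0.65 and -0.07, and without null replicate 2 they were -0.18 and -0.05. Not all genes of these lists were lowest in IMP1-OE. CD44, of the receptor list, had 483 and 437 CPM in IMP1-OE against 523 and 206 CPM in null. LAMB1, a laminin chain gene, had 127 and 117 CPM in IMP1-OE against 169.9 and 55.5 CPM in null. Both were thus above null replicate 2 and below null replicate 1.

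**Figure D5:**
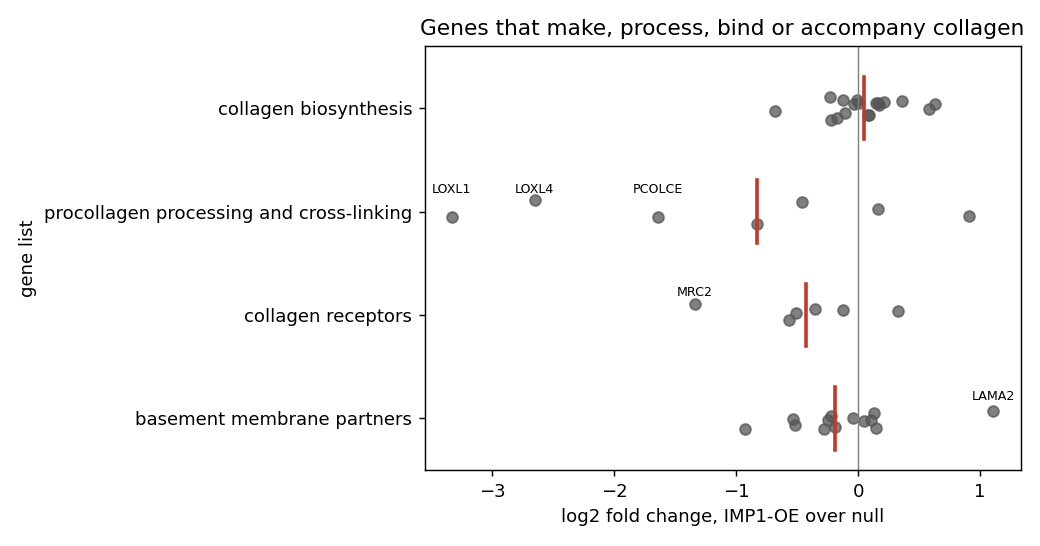
Log2 fold changes, IMP1-OE over null, of the tested genes of 4 lists. Each point is a gene, red bars are medians (0.04, -0.83, -0.43 and -0.19 from top to bottom), and genes beyond 1 in size are named. LOXL1 and LOXL4 lie farthest from 0.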

How the data were processed

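RNA of 4 libraries was broken into fragments of 18 to 50 nt, per the labels' protocols, and amplified for 15 PCR cycles. Per the submitters' processing notes, kallisto 0.46.2, HISAT2 2.1.0, cutadapt 3.5, fastp 0.21 and DESeq were used; their roles are not stated there. The authors deposited estimated counts per target (1 transcript per gene) and, per the file headers, a comparison table with log2 fold changes, p-values and adjusted p-values. Not given in the sources used here are the genome build and any use of strand or of molecular identifiers. Without strand, antisense RNA cannot be told apart. Fragments this short can match several collagen targets. All 20322 estimated counts per library were whole and used unrounded, and 2 further sample names in the table are not analysed here.

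The test was edgeR 4.0.16 in R 4.3.3: TMM scaling, default low-count filter, quasi-likelihood F test, Benjamini-Hochberg adjustment over all 12113 genes kept, threshold 0.05. SEs are the log2 fold change divided by the root of F. CPM are TMM-scaled. Alternatives were DESeq2 1.42.0, limma 3.58.1, other scalings, no filter, a replicate block, ARSI left out and each library left out. Steps were tested on simulated data. Every collagen gene above 20 counts in 2 or more libraries was described, and from other lists at most 4 genes with the smallest p, besides SERPINH1, genes at 0 and markers, named for their roles, and CD44, LAMB1 and PCOLCE2, for their values. The members and lists were chosen with earlier results of these data known. Promoter stretches came from RefSeq, in which 30 of the 41 genes matched.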

Additional observations from a re-analysis of the deposited data

How the results depend on the processing

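Collagen genes in this section are the 41 genes without collagen IX. None of them passed an adjusted p of 0.05 with all 4 libraries under any scaling, filter, block or tool tried. Leaving out libraries changed calls: without null replicate 1 edgeR called 1 collagen gene (COL16A1, adjusted p 0.0173) and DESeq2 1 (COL16A1, 0.00133), and without null replicate 2 edgeR called 0 and DESeq2 1 (COL18A1, 0.00253). The DESeq2 fits without a library were chosen after the data were seen. Fits that leave 1 null library assume that it varies like the IMP1-OE libraries, which for COL16A1 had 22.4 and 25.3 CPM, while the null CPM differed 3.42 times. Over all genes, edgeR called 0 with all libraries, 22 with no filter and 15 with the replicate block, DESeq2 164 and limma-voom 1. Without 1 library edgeR called 0 to 783 genes and DESeq2 27 (without IMP1-OE replicate 1), 33 (without IMP1-OE replicate 2), 263 (without null replicate 2) and 1025 (without null replicate 1).

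Directions of single collagen genes turned only where a library was left out. In edgeR and DESeq2, the log2 fold change without null replicate 1 was -0.14 and -0.12 for COL27A1, 0.07 and 0.09 for COL1A1 and 0.32 and 0.34 for COL6A1. Without null replicate 2 it was 0.13 in both for COL17A1 and 0.34 and 0.33 for COL16A1. Without IMP1-OE replicate 1 it was -0.07 and -0.08 for COL27A1, and without IMP1-OE replicate 2 -0.04 in both for COL4A2. The cause was not tested. With any 1 library left out, edgeR gave -1.44 to 0.34 for COL16A1, -0.45 to 0.13 for COL17A1, -0.14 to 0.31 for COL27A1, -0.04 to 1.67 for COL4A2, -1.81 to 0.07 for COL1A1 and -2.06 to 0.32 for COL6A1. COL18A1 and COL20A1 kept their direction in all 16 alternatives, with COL18A1 from 0.48 to 1.15. Their groups did not overlap, so leaving out a library could hardly have turned their direction. The median of the tested collagen genes was -0.06. In edgeR the median was from -0.14 to 0.30 without 1 library, 0.02 with library totals only and 0.07 without ARSI. In DESeq2 it was 0.08 with all libraries and -0.45 without IMP1-OE replicate 1, so its sign is not stable. These medians are not all over the same genes: 8 in the main fit, 9 without ARSI, and 11 and 17 in these 2 DESeq2 fits. Counts of genes above a minimum were 8 at 10 counts and 5 at 50. The labels give no pairing beyond the replicate number, and the correlation of same-numbered deviations was 0.123 over 12113 genes. The replicate block raised the calls over all genes from 0 to 15. It added no call of a collagen gene to the 0 of the main fit. Depth limits the 33 genes that never exceeded 15 counts.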
